A study of Mus musculus with 16 samples.

Results

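The genes described here encode 10 secreted proteins of tissue injury and of the acute phase response: Lcn2 (lipocalin 2), Clu (clusterin), Spp1 (osteopontin), Timp1, Cp (ceruloplasmin), Hp (haptoglobin), C3 (complement component 3) and the 3 fibrinogen chain genes Fga, Fgb and Fgg. The genes were taken by name, as proteins known for these roles, and the rule uses no measured value, although the set was proposed with earlier results of these data known. The deposited count table held a row for 9 of them among 24019 genes, and Fga is not analysed here. Of these 9 genes, 7 passed the filter on low counts and were tested among 8236 genes, while Fgb and Fgg were below it.

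Pancreas was profiled in 16 libraries, 4 per group, in 4 groups: Adam17ex mice given cerulein, Adam17ex mice given phosphate-buffered saline (PBS), wild-type (WT) mice given cerulein and WT mice given PBS. All were C57BL/6J littermates aged 6 to 8 weeks, and Adam17ex mice were homozygous for Adam17ex, a hypomorphic allele, which leaves a reduced level of the membrane protease ADAM17 and is not limited to the pancreas. Cerulein, a peptide that acts as cholecystokinin does and drives acinar cells into an acute pancreatitis, was injected intraperitoneally at 50 µg per kg, 7 times at hourly intervals, and tissue was taken 1 h after the last injection, so that every value is from 1 early time. Males numbered 2 in Adam17ex cerulein, 2 in Adam17ex PBS, 1 in WT cerulein and 0 in WT PBS libraries, and sex was a term of the fit. The labels also carry a 4-digit code of unstated meaning whose values are mostly separate between the groups, so if it orders cohorts, cohort and group cannot be told apart.

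Acute phase proteins are plasma proteins that the liver makes in larger amounts within hours of an injury, chiefly when interleukin 6 (IL-6) signals through STAT3 and together with C/EBP transcription factors. Injured epithelia make some of them locally, and lipocalin 2, clusterin, osteopontin and TIMP1 are known as products of damaged tissue rather than of the liver alone. ADAM17 is the protease that sheds the IL-6 receptor, tumour necrosis factor and several growth factor ligands from the cell surface. The fibrinogens and most haptoglobin of plasma come from hepatocytes.

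Each library held 455547 to 1476159 UMIs (unique molecular identifiers, each standing for 1 captured transcript), and Adam17ex PBS replicates 1 to 3 were the shallowest. Levels are CPM, the UMI count over the library size, scaled with TMM factors, on which 1 UMI is worth 0.681 to 2.60 CPM depending on the library. Adam17 itself had 15 UMIs in Adam17ex cerulein against 68 in WT cerulein libraries, and 10 in Adam17ex PBS against 41 in WT PBS libraries. Under cerulein it was lower in Adam17ex (log2 fold change -2.05 ± 0.40 SE, edgeR adjusted p = 0.00138; -1.91 and 0.0554 in females alone), and under PBS it did not pass the threshold (-1.21 ± 0.49, edgeR adjusted p = 0.210). Pancreatic identity was plain in every library: the 33 acinar secretory genes summed to between 291493 and 614747 CPM. Because whole tissue was measured, fewer cells of a type and less RNA per cell cannot be told apart. The labels number the replicates without stating that each is a separate animal, so p-values measure the spread between these libraries, which may in part be technical.

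The 9 measured genes together took 0.316% ± 0.0167 of all UMIs in Adam17ex cerulein, 0.166% ± 0.0307 in Adam17ex PBS, 0.545% ± 0.0835 in WT cerulein and 0.145% ± 0.0244 in WT PBS libraries (SD, n = 4 each). Clu alone made up 67.2% to 94.7% of those UMIs in a library, so this share is mostly a reading of clusterin. The other genes were counted far less often and are described 1 by 1.

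RefSeq promoter windows of GRCm38.p6, which run from 250 bases before to 50 bases after the annotated start, were matched for 8 of the 10 genes, with none matched for Clu and Hp. Those of 5 genes are shown 5′ to 3′ on the gene's own strand, because the comparisons below turn on them: Lcn2 and Cp, which rose with cerulein in both genotypes, Timp1, which was called higher in WT mice, Spp1, which differed between the genotypes under cerulein, and Fgb, a textbook liver acute phase gene that was barely detected. The start behind the Lcn2 window lies 513 bases inside the gene as its coordinates are given below, so that window does not cover the outermost start of that gene, while the Spp1 start lies 7 bases before the gene row and those of Timp1, Cp and Fgb coincide with it. Capitals mark matches, on either strand, to 5 short motifs. The STAT motif was TTCNNNGAA and the C/EBP motif TTNNGNAA. TATAAA was searched as the TATA motif. The AP-1 motif was TGANTCA, and NF-kB was searched as GGG, any 2 bases and TTTCC.
Lcn2, chr2:32387690-32387989, minus strand: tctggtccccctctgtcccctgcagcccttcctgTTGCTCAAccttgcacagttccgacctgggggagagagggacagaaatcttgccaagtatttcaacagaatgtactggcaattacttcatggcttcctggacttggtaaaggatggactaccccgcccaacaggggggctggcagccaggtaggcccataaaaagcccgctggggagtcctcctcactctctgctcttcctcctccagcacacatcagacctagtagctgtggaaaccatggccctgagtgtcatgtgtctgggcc
Spp1, chr5:104434861-104435160, plus strand: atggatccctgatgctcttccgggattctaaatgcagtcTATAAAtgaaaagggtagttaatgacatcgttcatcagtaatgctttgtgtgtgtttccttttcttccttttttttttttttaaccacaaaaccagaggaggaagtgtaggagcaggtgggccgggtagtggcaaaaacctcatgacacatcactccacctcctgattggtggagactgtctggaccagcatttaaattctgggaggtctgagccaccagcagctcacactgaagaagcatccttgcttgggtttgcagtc
Timp1, chrX:20869916-20870215, plus strand: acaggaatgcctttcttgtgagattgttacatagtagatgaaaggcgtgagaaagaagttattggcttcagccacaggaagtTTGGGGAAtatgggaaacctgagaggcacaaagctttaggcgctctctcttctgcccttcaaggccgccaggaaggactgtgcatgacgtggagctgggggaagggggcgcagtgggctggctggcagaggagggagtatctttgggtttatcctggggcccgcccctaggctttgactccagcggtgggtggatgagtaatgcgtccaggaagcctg
Cp, chr3:19956804-19957103, plus strand: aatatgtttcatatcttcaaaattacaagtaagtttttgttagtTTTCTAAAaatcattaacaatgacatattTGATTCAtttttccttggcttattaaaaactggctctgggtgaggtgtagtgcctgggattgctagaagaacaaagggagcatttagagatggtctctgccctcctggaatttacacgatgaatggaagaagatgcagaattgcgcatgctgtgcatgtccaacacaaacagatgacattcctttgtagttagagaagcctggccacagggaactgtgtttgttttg
Fgb, chr3:83049814-83050113, minus strand: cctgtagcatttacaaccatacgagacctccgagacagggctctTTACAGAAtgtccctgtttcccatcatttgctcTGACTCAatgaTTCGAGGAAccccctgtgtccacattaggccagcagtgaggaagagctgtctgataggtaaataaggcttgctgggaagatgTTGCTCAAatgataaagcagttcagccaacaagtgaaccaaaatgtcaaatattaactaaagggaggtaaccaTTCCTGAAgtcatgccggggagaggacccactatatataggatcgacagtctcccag

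Among 27025 promoter windows of the same length, 40.7% held the C/EBP motif, 14.2% TATA, 8.47% STAT, 7.93% AP-1 and 1.62% NF-kB. Fgb held the STAT motif at position -162 from the start, the AP-1 motif at -173 and the C/EBP motif at -206, -80 and -7, with no overlap between them. Lcn2 held C/EBP at -216 and Timp1 held it at -168, while Cp held C/EBP at -206 and AP-1 at -177. Spp1 held only the TATA motif, at -211. Of the windows not shown, that of C3 held C/EBP at -70, -58 and -45 and TATA at 15, that of Fga held STAT at -234 and C/EBP at -135, and that of Fgg held none of the 5. No window of the 8 held the NF-kB motif. These are matches of letters in a short window and say nothing of binding.

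**Figure D1:**
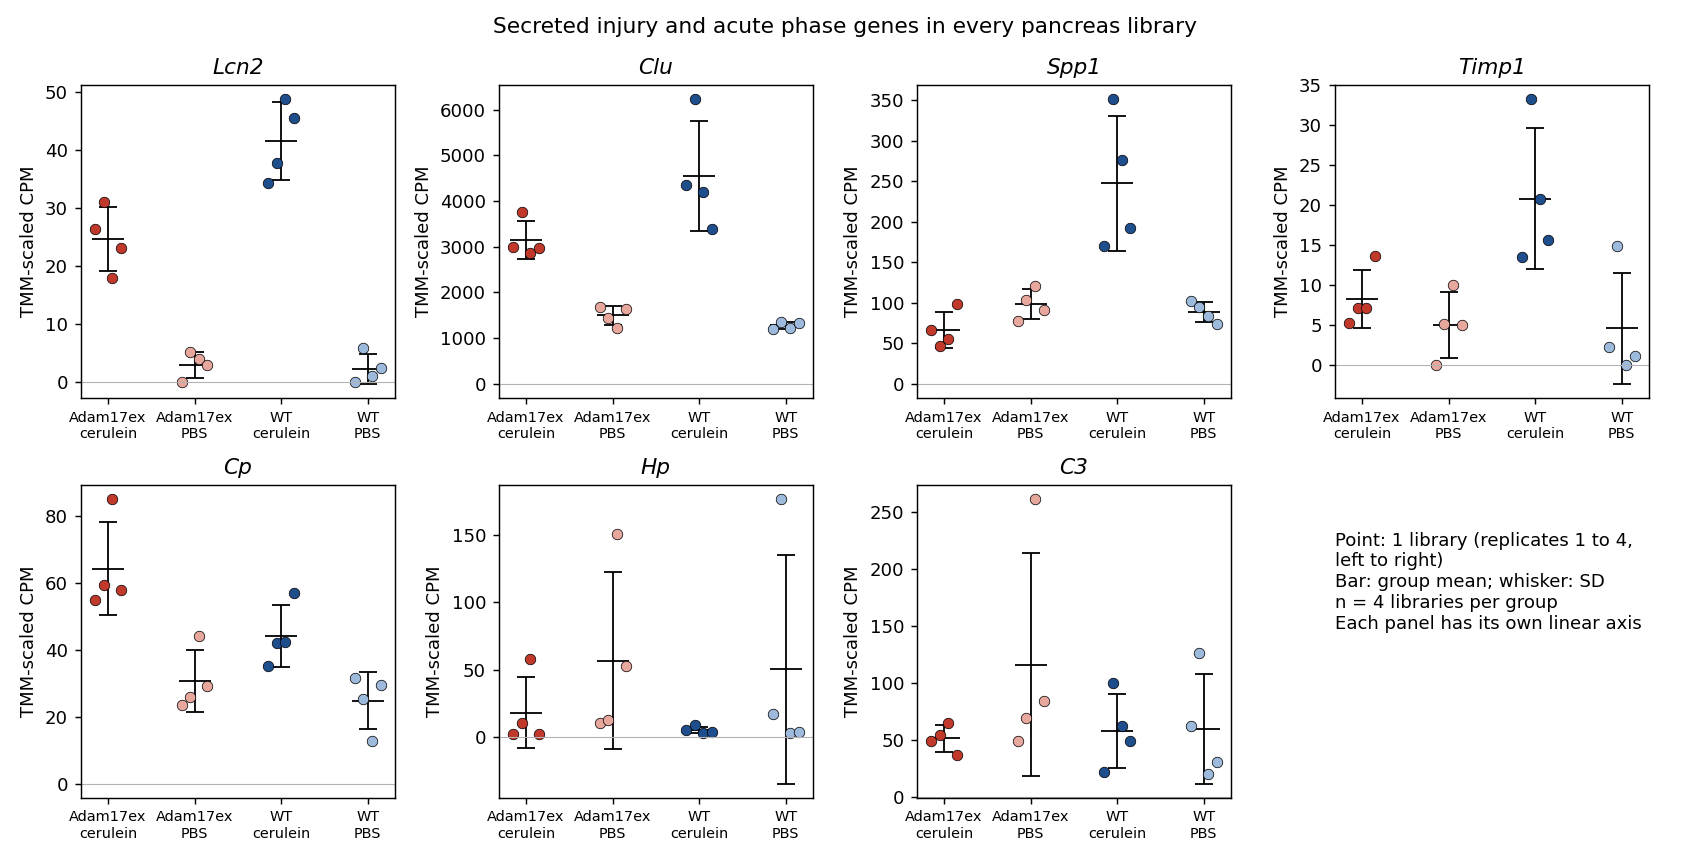
Levels of the 7 tested genes, as TMM-scaled CPM on a linear axis of its own per panel, in each library of Adam17ex cerulein, Adam17ex PBS, WT cerulein and WT PBS mice. Points are libraries, bars are means and whiskers SD (n = 4). Lcn2, Clu and Cp are higher after cerulein in both genotypes without overlap, Spp1 in WT cerulein libraries lies above all others, and Hp and C3 are each led by single libraries.

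Lcn2 (chromosome 2, GRCm38 32384633-32388252, minus strand) encodes a small secreted protein that binds bacterial siderophores and is a standard marker of epithelial injury. It reached 26.4, 31.1, 18.0 and 23.2 CPM in Adam17ex cerulein libraries, against 0, 5.16, 4.02 and 3.03 CPM in Adam17ex PBS libraries. In WT mice it reached 34.4, 37.7, 48.7 and 45.5 CPM after cerulein, against 0, 5.96, 1.05 and 2.45 CPM after PBS. Every cerulein library stood above every PBS library in both genotypes, and all 4 Adam17ex cerulein libraries lay below all 4 WT cerulein libraries. The PBS values rest on 0 to 8 UMIs per library. Lcn2 rose with cerulein 7.83-fold in Adam17ex mice (log2 fold change 2.97 ± 0.50, edgeR adjusted p = 0.000124) and 15.1-fold in WT mice (3.92 ± 0.41, edgeR adjusted p = 1.03e-07). Under cerulein the genotype difference of -0.70 ± 0.29 did not pass the threshold (edgeR adjusted p = 0.136), nor did the interaction, the difference between the cerulein responses of the genotypes, at -0.95 ± 0.82 (95% interval -2.64 to 0.74, edgeR adjusted p = 0.536).

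Lipocalin 2 is also a neutrophil granule protein. The neutrophil marker list summed to 6.13 to 40.8 CPM in Adam17ex cerulein, 2.58 to 18.1 in Adam17ex PBS, 2.71 to 22.2 in WT cerulein and 3.15 to 47.7 in WT PBS libraries, with 12 of 16 markers in the table and none abundant enough to be tested. S100a8 had 16, 3, 8 and 33 UMIs over the libraries of Adam17ex cerulein, Adam17ex PBS, WT cerulein and WT PBS mice. In the same order S100a9 had 13, 5, 8 and 17 and Ltf had 19, 1, 3 and 5. Camp and Ngp each had 0, 0, 0 and 2, and Lcn2 had 109, 7, 195 and 11. The part of neutrophils in the Lcn2 values was not tested.

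Clu (chromosome 14, 65968483-65981547, plus strand) encodes clusterin, a secreted chaperone that binds misfolded proteins and apolipoprotein particles. It was the most counted of these genes, at 2988, 3757, 2859.9 and 2982 CPM in Adam17ex cerulein against 1688, 1441, 1214 and 1640.4 CPM in Adam17ex PBS libraries. WT libraries had 4360.3, 6232, 4207 and 3379 CPM after cerulein against 1208, 1359.7, 1223 and 1328 CPM after PBS. Again no cerulein library overlapped a PBS library of its genotype, whereas the cerulein groups of the genotypes overlapped, since 3757 CPM in Adam17ex exceeded 3379 CPM in WT. Clu rose 2.10-fold in Adam17ex mice (log2 fold change 1.07 ± 0.20, edgeR adjusted p = 0.000295) and 3.55-fold in WT mice (1.83 ± 0.20, edgeR adjusted p = 2.49e-07). Neither the genotype difference under cerulein (-0.53 ± 0.20, edgeR adjusted p = 0.0991) nor the interaction (-0.75 ± 0.28, 95% interval -1.33 to -0.18, edgeR adjusted p = 0.107) passed. With DESeq2 both did, at -0.55 with adjusted p = 0.0361 for the genotype difference and -0.78 with adjusted p = 0.0397 for the interaction. Leaving out the 3 shallow libraries, here and below, leaves only replicate 4 in the Adam17ex PBS group. The Clu response in Adam17ex mice was then 0.92 and no longer passed.

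Spp1 (chromosome 5, 104435118-104441050, plus strand) encodes osteopontin, a secreted phosphoglycoprotein that binds integrins and CD44 and that pancreatic duct cells and activated macrophages are known to make. Its level was 66.5, 46.2, 55.2 and 98.1 CPM in Adam17ex cerulein libraries, against 78.0, 103, 121 and 90.9 CPM in Adam17ex PBS libraries. In WT mice it was 170.0, 351, 276 and 192 CPM after cerulein, against 102, 94.6, 84.0 and 73.5 CPM after PBS. The WT cerulein libraries therefore stood above all other libraries, the lowest at 170.0 CPM against 121 CPM for the highest of the rest, and the other 3 groups overlapped each other. Spp1 rose 2.96-fold in WT mice (log2 fold change 1.56 ± 0.22, edgeR adjusted p = 4.73e-06), and its change in Adam17ex mice was -0.58 ± 0.23 and did not pass (edgeR adjusted p = 0.0578).

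Under cerulein Spp1 was lower in Adam17ex than in WT mice, at 66.5 ± 22.6 CPM in Adam17ex and 247 ± 82.9 CPM in WT libraries (SD, n = 4 each; log2 fold change -1.78 ± 0.22, edgeR adjusted p = 1.13e-05). Under PBS the levels were 98.2 ± 18.1 CPM in Adam17ex and 88.6 ± 12.5 CPM in WT libraries and did not differ beyond their spread (0.37 ± 0.25, edgeR adjusted p = 0.481). The interaction was -2.15 ± 0.32 (95% interval -2.80 to -1.49, edgeR adjusted p = 0.000258), and Spp1 was the only 1 of the 7 tested genes for which it passed, as it did for 6.02% of all tested genes. By p it ranked 21 among the 8236 genes for the interaction and 27 for the genotype difference under cerulein. Both calls held in all 27 alternative fits, with an adjusted p of at most 0.0223 for the interaction. The change in Adam17ex mice did pass without Adam17ex cerulein replicate 4 (-0.70, adjusted p = 0.0404) or without WT cerulein replicate 4 (-0.58, adjusted p = 0.0497), and was -0.13 without the 3 shallow Adam17ex PBS libraries.

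Marker genes of duct cells moved in the same comparisons. Of 10 tested genes of the duct list, which does not hold Spp1, 4 were higher and 0 lower with cerulein in Adam17ex mice, and 6 were higher and 3 lower in WT mice. Over all tested genes 14.1% were higher and 16.2% lower in Adam17ex mice, and 19.8% and 21.3% in WT mice. Under cerulein 2 of the 10 duct genes were higher and 6 lower in Adam17ex than in WT mice, where 5.85% of all tested genes were higher and 3.85% lower. The interaction was negative and passed for 5 of the 10, as for 2.27% of all tested genes. The summed level of the list overlapped between all groups, at 3353 to 5181 CPM in Adam17ex cerulein, 2953 to 6078 in Adam17ex PBS, 3424 to 4554 in WT cerulein and 4281 to 5993 in WT PBS libraries, and Tff2 made up most of it. Macrophage marker sums were 150.2 to 263 CPM in Adam17ex cerulein and 194 to 285 CPM in WT cerulein libraries, and all 14 markers of each of these lists had UMIs in every group. The part of either cell type in the Spp1 result was not tested.

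Timp1 (chromosome X, 20870166-20874735, plus strand) encodes a secreted inhibitor of matrix metalloproteinases. It was scarce, at 5.27, 7.11, 7.20 and 13.6 CPM in Adam17ex cerulein against 0, 5.16, 10.0 and 5.05 CPM in Adam17ex PBS libraries. WT libraries had 13.6, 33.2, 20.8 and 15.7 CPM after cerulein against 2.35, 14.9, 0 and 1.23 CPM after PBS. In each genotype the treatment groups overlapped, in WT mice through 1 PBS library, replicate 2, at 14.9 CPM. Timp1 rose 3.94-fold in WT mice (log2 fold change 1.98 ± 0.57, edgeR adjusted p = 0.00742), or by 4.15 on the log2 scale without WT PBS replicate 2. Counts thinned to equal depth gave 1.68 with an adjusted p of 0.123. The change in Adam17ex mice, 0.72 ± 0.74, did not pass (95% interval -0.81 to 2.25, edgeR adjusted p = 0.493), and neither did the genotype difference under cerulein at -1.12 ± 0.53 (edgeR adjusted p = 0.198). The interaction was -1.26 ± 0.98 and did not pass (edgeR adjusted p = 0.488), but was -3.38 and passed without WT PBS replicate 2 (adjusted p = 0.0422). The remaining WT PBS libraries held 2, 0 and 1 Timp1 UMIs, so both values without replicate 2 rest on a reference of very few counts.

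Cp (chromosome 3, 19957054-20009145, plus strand) encodes ceruloplasmin, the copper-carrying ferroxidase of plasma and an acute phase protein of the liver. It reached 54.9, 59.5, 85.2 and 57.9 CPM in Adam17ex cerulein libraries, against 23.4, 25.8, 44.2 and 29.3 CPM in Adam17ex PBS libraries. In WT mice it reached 35.3, 42.1, 42.3 and 57.0 CPM after cerulein, against 31.7, 25.3, 12.6 and 29.4 CPM after PBS. Both treatment comparisons were free of overlap, and here the Adam17ex cerulein group held the highest mean, 64.4 ± 14 CPM in Adam17ex and 44.2 ± 9.18 CPM in WT libraries (SD, n = 4 each). Cp rose 2.05-fold in Adam17ex mice (log2 fold change 1.04 ± 0.26, edgeR adjusted p = 0.00493) and 1.77-fold in WT mice (0.82 ± 0.26, edgeR adjusted p = 0.0133). The genotype difference under cerulein was 0.49 ± 0.24 (edgeR adjusted p = 0.210) and the interaction 0.22 ± 0.37 (95% interval -0.56 to 0.99, edgeR adjusted p = 0.781), and neither passed. The call in WT mice was lost without WT cerulein replicate 4 (0.67, adjusted p = 0.0596) and on thinned counts (0.67, adjusted p = 0.204). The call in Adam17ex mice was lost on thinned counts (1.03, adjusted p = 0.0557) and without the 3 shallow libraries (1.11, adjusted p = 0.0827).

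**Figure D2:**
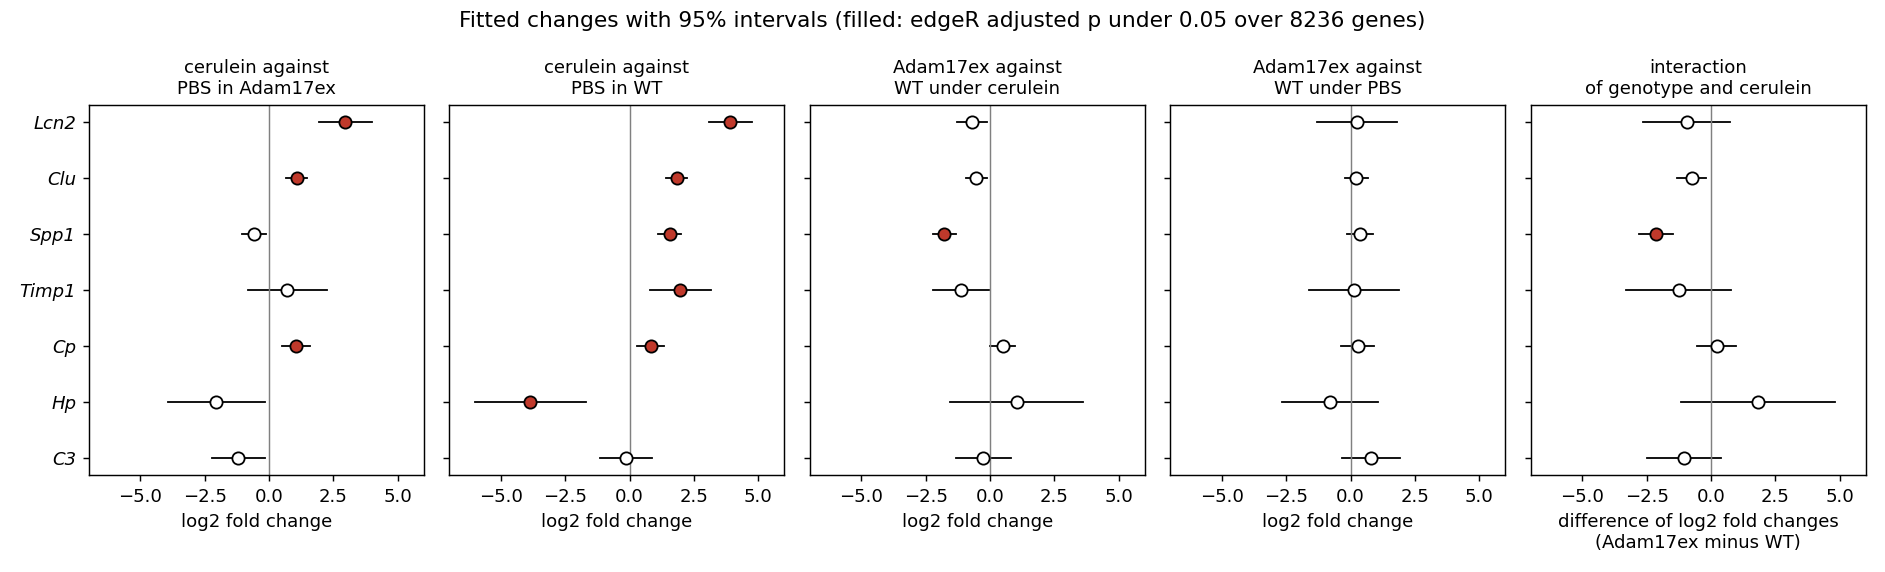
Fitted log2 fold changes of the 7 tested genes with 95% intervals in 5 comparisons, in the panels from left to right cerulein against PBS in Adam17ex and in WT mice, Adam17ex against WT under cerulein and under PBS, and the interaction. Filled points passed an edgeR adjusted p of 0.05 over 8236 genes. Spp1 is filled at -1.78 under cerulein and -2.15 in the interaction panel, where no other point is.

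Hp (chromosome 8, 109575128-109579172, minus strand) encodes haptoglobin, which captures free haemoglobin and is made by liver, adipose tissue and maturing neutrophils. It had 2.11, 10.7, 57.6 and 2.72 CPM in Adam17ex cerulein libraries, against 10.4, 12.9, 151 and 52.5 CPM in Adam17ex PBS libraries. In WT mice it had 5.43, 8.86, 3.58 and 4.13 CPM after cerulein, against 17.6, 176, 3.15 and 3.68 CPM after PBS. All groups overlapped, and 1 library held most of the signal in 3 of the 4 groups, namely replicate 3 in both Adam17ex groups and replicate 2 in WT PBS. The fit called Hp lower with cerulein in WT mice (log2 fold change -3.86 ± 1.04, edgeR adjusted p = 0.00491) but not in Adam17ex mice (-2.04 ± 0.92, edgeR adjusted p = 0.0960), and the interaction, 1.81 ± 1.44, did not pass (edgeR adjusted p = 0.496). Without WT PBS replicate 2 the WT change was -1.07 with adjusted p = 0.434, so that call rests on 1 library. In Adam17ex mice Hp was called lower without Adam17ex cerulein replicate 3 (-3.35, adjusted p = 0.0276), without Adam17ex PBS replicate 1 (-2.54, adjusted p = 0.0402) or without WT PBS replicate 2 (-1.99, adjusted p = 0.0164). It was called lower there also in a fit with terms for the replicate numbers, given in the last section.

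Adipocyte markers were high in the same libraries. The 13 adipocyte genes summed to 116, 123, 687 and 115 CPM in Adam17ex cerulein, 278, 539.6, 1766 and 1388 CPM in Adam17ex PBS, 78.7, 96.4, 63.0 and 85.1 CPM in WT cerulein and 444, 913, 188 and 238 CPM in WT PBS libraries. Adam17ex cerulein replicate 3, Adam17ex PBS replicate 3 and WT PBS replicate 2, each the highest of its group for Hp, were each the highest of their group for the adipocyte sum as well. Of 8 tested adipocyte genes 7 fell with cerulein in Adam17ex mice and 8 in WT mice, beside 16.2% and 21.3% of all tested genes. Over the WT cerulein libraries Plin1, Lep and Pck1 were at 0 UMIs and Adipoq at 1. Leaving out those 3 libraries together, an alternative chosen after the data were seen, gave an Hp change of -2.48 (adjusted p = 0.00845) in Adam17ex and -0.57 (adjusted p = 0.566) in WT mice. B cell markers moved with Hp too: all 12 had a row, and they summed to 38.0, 40.9, 216 and 37.5 CPM in Adam17ex cerulein, 78.0, 196, 1212 and 559 CPM in Adam17ex PBS, 35.3, 111, 38.0 and 57.9 CPM in WT cerulein and 739, 1171, 66.1 and 79.6 CPM in WT PBS libraries. The same 3 libraries were the highest of their groups, the 4 tested B cell genes fell with cerulein in both genotypes, and Ms4a1, Cd79a, Cd79b, Ighd, Fcmr and Blk were at 0 UMIs over the WT cerulein libraries. The part of adipose or B cell RNA in the Hp values was not tested.

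**Figure D3:**
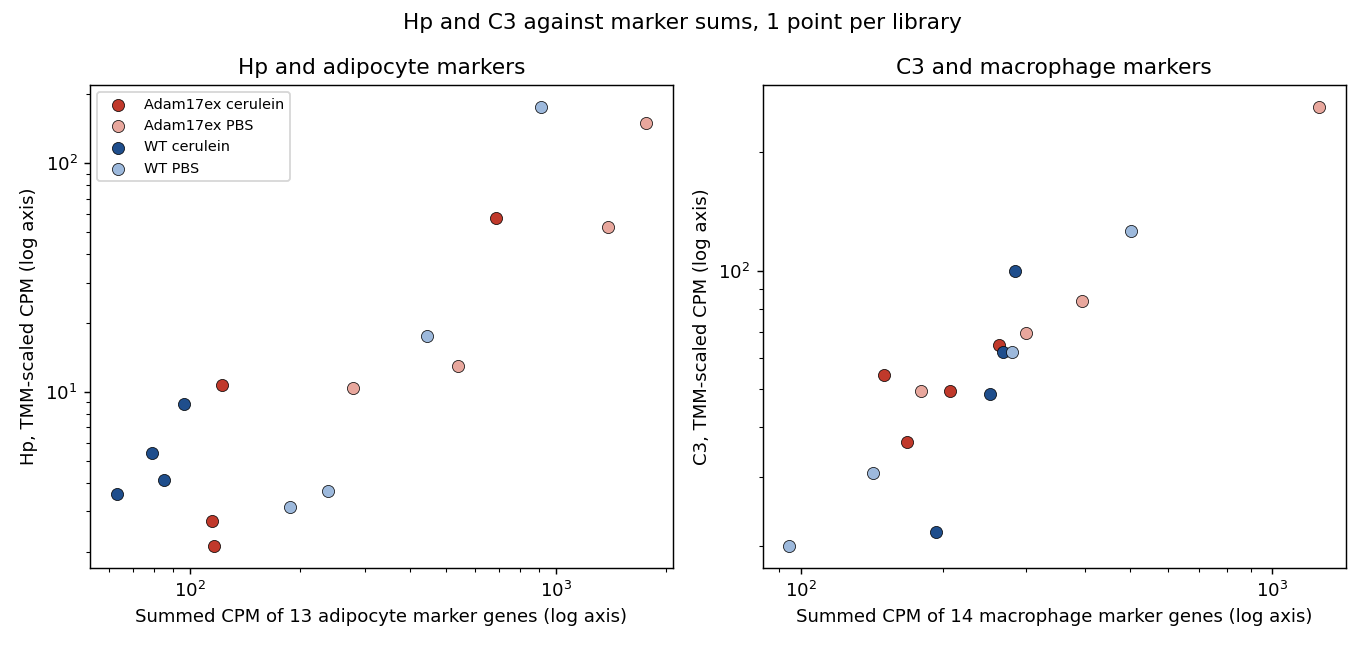
Hp against the summed level of 13 adipocyte markers (left) and C3 against that of 14 macrophage markers (right), as TMM-scaled CPM with log axes, 1 point per library of Adam17ex cerulein, Adam17ex PBS, WT cerulein and WT PBS mice. The libraries highest for Hp (176 and 151 CPM) and for C3 (261 CPM) lie at the high end of the marker sums.

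C3 (chromosome 17, 57203970-57228136, minus strand) encodes the central complement component, on which all activation routes converge. It had 49.6, 54.2, 64.8 and 36.8 CPM in Adam17ex cerulein libraries, against 49.4, 69.7, 261 and 83.8 CPM in Adam17ex PBS libraries. In WT mice it had 21.7, 99.7, 62.3 and 48.8 CPM after cerulein, against 62.3, 127, 19.9 and 30.6 CPM after PBS. The groups overlapped throughout, and Adam17ex PBS replicate 3 stood alone at 261 CPM. C3 passed in none of the 5 comparisons. Its change with cerulein was -1.19 ± 0.49 in Adam17ex mice (edgeR adjusted p = 0.0707) and -0.14 ± 0.48 in WT mice (95% interval -1.14 to 0.86, edgeR adjusted p = 0.845), and the interaction was -1.05 ± 0.69 (edgeR adjusted p = 0.395). In Adam17ex mice it was called lower without Adam17ex PBS replicate 1 (-1.38, adjusted p = 0.0371) or WT PBS replicate 2 (-1.13, adjusted p = 0.0445), and was -0.29 without Adam17ex PBS replicate 3 (adjusted p = 0.700). Macrophage marker sums followed the same order at the top, 1256 CPM in Adam17ex PBS replicate 3 and 501 CPM in WT PBS replicate 2 being the 2 highest of all libraries. Mesothelial sums were also highest there, at 257 CPM in Adam17ex PBS replicate 3, and the part of either cell type in the C3 values was not tested.

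The fibrinogen chains, which assemble into the clotting protein of plasma, were at the limit of detection. Fgb (chromosome 3, 83040141-83049863, minus strand) had 3 UMIs in Adam17ex cerulein, 0 in Adam17ex PBS, 1 in WT cerulein and 2 in WT PBS libraries. Fgg (chromosome 3, 83007724-83015049, plus strand) had 2, 1, 2 and 0 UMIs in the same order of groups. A count of 0 allows a level of up to 1.23 CPM for Fgb over the Adam17ex PBS libraries, as counting error only. For Fgg over the WT PBS libraries it allows up to 0.727 CPM. Unlike the other levels, these 2 bounds are per total UMIs of the group, without TMM scaling. All 3 Fgb UMIs of the Adam17ex cerulein group and both of its Fgg UMIs came from replicate 3. That library also had 14 UMIs of Alb and 23 of Cyp2e1, genes that hepatocytes express, while the other 3 libraries of its group had 2 to 9 of Alb and 0 of Cyp2e1. It was the highest of its group for the adipocyte sum too, at 687 CPM. Cyp2e1 had 16 UMIs in Adam17ex PBS replicate 3, with 0 of Fgb and 1 of Fgg. In WT PBS replicate 2 it had 12, with 2 of Fgb and 0 of Fgg. The source of the fibrinogen UMIs was not tested. In a fit without a filter on low counts, over 24019 genes, Fgb and Fgg passed in none of the 5 comparisons, with edgeR adjusted p between 0.585 and 1. A change in fibrinogen RNA was therefore not detectable at this depth.

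The hepatocyte list, with 18 of 22 markers in the table, summed to 234 to 504 CPM in Adam17ex cerulein, 213 to 473 in Adam17ex PBS, 110.3 to 259.6 in WT cerulein and 511 to 757 in WT PBS libraries. Ttr and Vtn supplied most of these sums, and pancreatic islets also make Ttr. Alb had 27, 9, 4 and 30 UMIs over the libraries of Adam17ex cerulein, Adam17ex PBS, WT cerulein and WT PBS mice, and Fabp1 had 3, 0, 0 and 0. The part of hepatocyte RNA in the levels of the acute phase genes was not tested.

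With cerulein, 3 of the 7 tested genes were called higher and 0 lower in Adam17ex mice, where 14.1% of all tested genes were called higher and 16.2% lower. In WT mice 5 were called higher and 1 lower, against 19.8% and 21.3% of all tested genes. In either direction 30.3% of all tested genes were called in Adam17ex mice and 41.1% in WT mice. In Adam17ex mice 5 of the 7 were called without Adam17ex PBS replicate 1 or without WT PBS replicate 2, with Hp and C3 added as lower, and 1, Lcn2, without the 3 shallow libraries. Over all tested genes these fits called 2342 of 8700, 2615 of 8577 and 1360 of 9915 in turn, against 2493 of 8236 with all libraries. The median log2 fold change of the 7 was 0.72 in Adam17ex mice, beside -0.03 over all tested genes, and 1.56 in WT mice, beside -0.04. All 4 cerulein libraries stood above all 4 PBS libraries for Lcn2, Clu and Cp in Adam17ex mice, as for 13.8% of all tested genes, and for Lcn2, Clu, Spp1 and Cp in WT mice, as for 19.2%.

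Between the genotypes under cerulein, 1 of the 7 was called lower in Adam17ex mice, Spp1, where 3.85% of all tested genes were called lower, 5.85% higher and 9.7% in either direction. All 4 Adam17ex libraries lay below all 4 WT libraries for Lcn2 and Spp1, as for 7.92% of all tested genes. The median was -0.53 for the 7 genes and 0.01 over all tested genes. Hp and C3 differed by 1.03 ± 1.25 and -0.27 ± 0.52 and did not pass (edgeR adjusted p = 0.673 and 0.798).

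Under PBS none of the 7 was called by edgeR, where 1.36% of all tested genes were called (0.631% higher and 0.729% lower), and 0 had an unadjusted p under 0.05. DESeq2 also called 0 of the 4 for which it gave an adjusted p. The log2 fold changes of Adam17ex against WT were 0.25 ± 0.75 for Lcn2, 0.22 ± 0.21 for Clu, 0.14 ± 0.85 for Timp1 and 0.28 ± 0.31 for Cp. Those of Hp and C3 were -0.78 ± 0.90 and 0.78 ± 0.55. Every gene overlapped between the genotypes, and the 95% intervals were wide for the scarce ones, from -1.30 to 1.80 for Lcn2 and from -1.61 to 1.89 for Timp1. For the interaction 1 of the 7 was called, Spp1, with 2.27% of all tested genes called lower, 3.75% higher and 6.02% in either direction. The comparisons share libraries, so their counts are not independent of each other.

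The genes whose levels followed each of the 7 most closely over the 16 libraries were sorted by Pearson correlation of log2 CPM, as a measure of likeness with no test, since the libraries share 4 groups. Clu was most like Nupr1 (r = 0.975), Krt18 (0.971) and Ctsl (0.968), and Lcn2 most like Gadd45b (0.959), Ube2z (0.952) and Rflnb (0.952). Spp1 was most like Map1lc3a (0.945), after which the next, Pgd, came at 0.862. Timp1 was most like Serpinh1 (0.945) and Tnip1 (0.932), and Cp like Egr1 (0.911) and Rassf1 (0.884). Hp stood nearest to Trf (0.937), Ighm (0.893) and the adipocyte hormone gene Adipoq (0.889), and C3 nearest to the leukocyte genes Cd52 (0.898), C1qb (0.896) and Lyz2 (0.896).

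Other acute phase and injury proteins went both ways with cerulein, as all tested genes did. Over all tested genes 14.1% were called higher and 16.2% lower with cerulein in Adam17ex mice. In WT mice 19.8% were higher and 21.3% lower, and the counts of this and the following lists stand beside these shares. Of 33 listed genes 29 had a row and 9 were tested, of which 2 were higher and 2 lower with cerulein in Adam17ex mice and 3 higher and 2 lower in WT mice. Serpina3n, a serine protease inhibitor of the acute phase, rose by 2.48 ± 0.58 in Adam17ex mice (edgeR adjusted p = 0.00241) and by 1.82 ± 0.47 in WT mice (adjusted p = 0.00353). Il1rn, the secreted antagonist of the interleukin 1 receptor, rose by 3.94 ± 0.63 in WT mice (adjusted p = 2.95e-05), and Cd14, the lipopolysaccharide co-receptor, rose there by 1.84 ± 0.41 (adjusted p = 0.00104). Il1rn was called higher with cerulein in Adam17ex mice too, at 1.30 to 3.35 over 26 alternatives, of which 6 lost the call. Cd14, also in the macrophage list, was called lower in Adam17ex than in WT mice under cerulein. That difference was -1.50 to -0.995 over 27 alternatives and lost the call in 10. Vtn (vitronectin, an adhesive plasma protein) was lower with cerulein in WT mice, at -1.64 ± 0.29 (edgeR adjusted p = 0.000106). In Adam17ex mice its change was 0.75 ± 0.30 and did not pass (adjusted p = 0.0600). Under PBS Vtn was lower in Adam17ex than in WT mice (-1.46 ± 0.33, edgeR adjusted p = 0.0331), and under cerulein its difference of 0.93 ± 0.31 did not pass (adjusted p = 0.0579). Its interaction of 2.39 ± 0.41 passed (edgeR adjusted p = 0.00125). The PBS call was lost in 7 of 27 alternatives, among them those without Adam17ex cerulein replicate 3, Adam17ex PBS replicate 2 or 3, or WT PBS replicate 3, over a range of -1.95 to -1.25.

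The list of inducers of acute phase genes holds the IL-6, STAT3 and C/EBP route and also genes of NF-kB and of tumour necrosis factor receptors. Of 21 tested, 10 were higher and 3 lower with cerulein in Adam17ex mice, and 13 higher and 2 lower in WT mice. Socs3, the feedback inhibitor of STAT3 signalling, rose by 1.77 ± 0.49 in Adam17ex mice (edgeR adjusted p = 0.00913) and by 3.57 ± 0.45 in WT mice (adjusted p = 1.42e-06), and its Adam17ex call was lost without Adam17ex PBS replicate 4 (1.39, adjusted p = 0.0618). Cebpd, the C/EBP family member induced in inflammation, rose by 1.90 ± 0.40 in Adam17ex mice (adjusted p = 0.00108) and by 3.54 ± 0.43 in WT mice (adjusted p = 9.69e-07). Rela, the NF-kB subunit, rose by 2.07 ± 0.24 and Tnfrsf1a, a tumour necrosis factor receptor, by 1.89 ± 0.25 in Adam17ex mice, against 2.65 ± 0.23 and 1.72 ± 0.23 in WT mice. For 0 of the 21 did edgeR call the interaction, which passed for 6.02% of all tested genes. The estimates were -1.80 ± 0.77 for Socs3 (edgeR adjusted p = 0.172) and -1.64 ± 0.66 for Cebpd (adjusted p = 0.145). The genes named next were chosen after their values were seen. Il11ra1, an interleukin 11 receptor, fell by 1.5 ± 0.25 in Adam17ex mice (edgeR adjusted p = 9.91e-05) and by 1.67 ± 0.26 in WT mice (adjusted p = 2.24e-05), calls lost in 1 and in 0 of 27 alternatives. Il6ra, the IL-6 receptor, fell by 0.91 ± 0.27 in Adam17ex mice (edgeR adjusted p = 0.0126) and by 0.62 ± 0.24 in WT mice (adjusted p = 0.0453), calls lost in 6 and in 20 of 27 alternatives. Lifr, the receptor of leukaemia inhibitory factor, fell by 0.79 ± 0.20 in Adam17ex mice (edgeR adjusted p = 0.00461), a call lost in 4 of 27 alternatives. Its WT change of -0.39 ± 0.19 did not pass (edgeR adjusted p = 0.105). Under cerulein Cebpb, a C/EBP family member, was higher in Adam17ex than in WT mice (1.07 ± 0.21, edgeR adjusted p = 0.00138), as was Lif, the ligand of Lifr (1.85 ± 0.51, adjusted p = 0.0223), and Jak2, a kinase of cytokine receptors, was lower (-1.11 ± 0.35, adjusted p = 0.0444). The call of Cebpb between genotypes was lost in 1 of 27 alternatives. The call of Lif was lost in 6 of 26 alternatives, among them those without Adam17ex cerulein replicate 1 or 4 or WT cerulein replicate 2, 3 or 4. That of Jak2 was lost in 11 of 26, among them those without any 1 Adam17ex cerulein library, WT cerulein replicate 3 or 4, or WT PBS replicate 3.

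**Figure D4:**
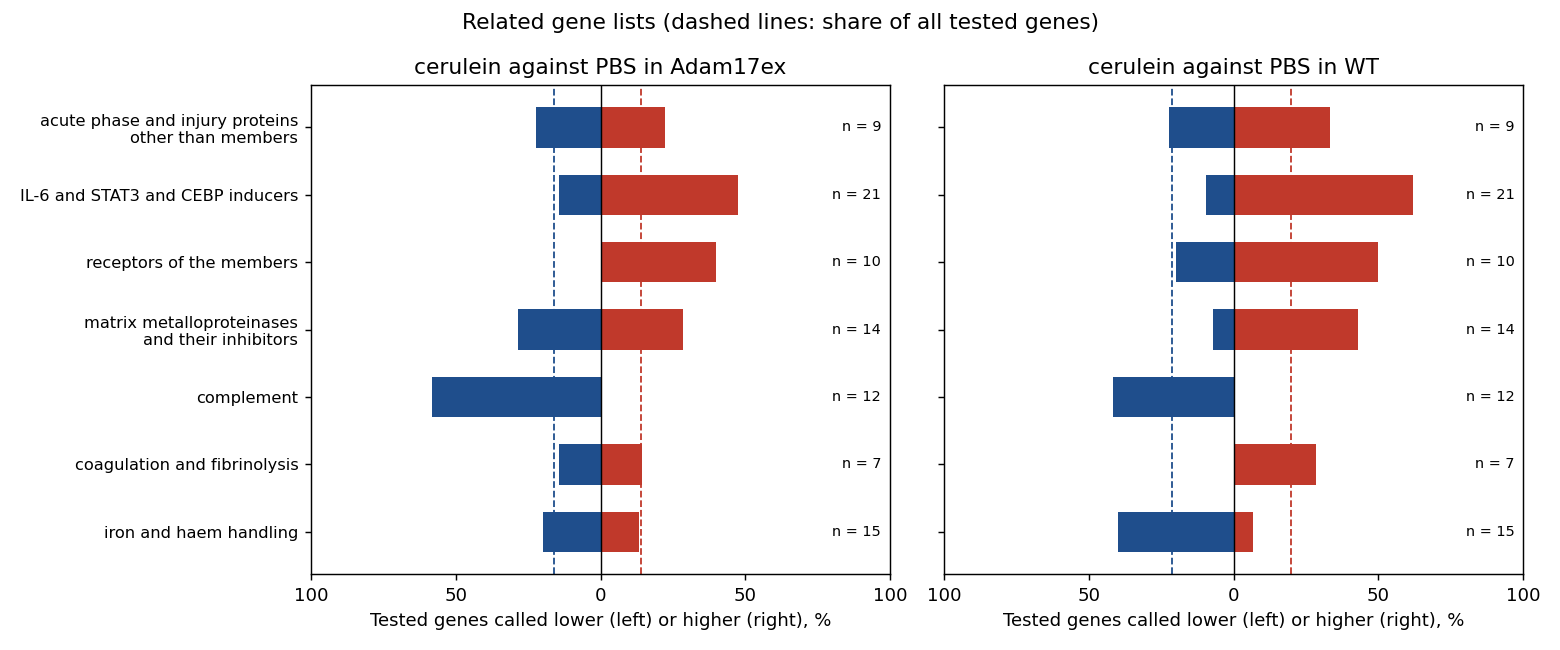
Share of the tested genes of 7 related lists called higher (right) or lower (left) with cerulein, in percent, in Adam17ex mice (left panel) and WT mice (right panel); n is the number tested and dashed lines give the share over all 8236 genes. The IL-6, STAT3 and C/EBP list extends furthest to the higher side, with 10 of 21 genes in Adam17ex and 13 of 21 in WT mice, and complement has no gene on that side.

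Cell surface receptors of the secreted proteins were called higher for 4 and lower for 0 of 10 tested genes in Adam17ex mice, and higher for 5 and lower for 2 in WT mice. Cd44, a receptor of osteopontin, rose by 2.28 ± 0.44 in Adam17ex mice (edgeR adjusted p = 0.000459) and by 2.75 ± 0.37 in WT mice (adjusted p = 3.94e-06). Itgb1, an integrin chain of osteopontin receptors, rose by 1.21 ± 0.17 in WT mice (adjusted p = 5.48e-06). It was called higher in Adam17ex mice too, at 0.59 to 0.89 over 27 alternatives, of which 2 lost the call. Vldlr, which takes up lipoproteins, was -1.68 ± 0.29 with cerulein in WT mice (adjusted p = 5.85e-05) and was higher in Adam17ex than in WT mice under cerulein (1.45 ± 0.29, edgeR adjusted p = 0.00195).

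Metalloproteinases and their inhibitors, the setting in which TIMP1 acts, gave 4 higher and 4 lower of 14 tested genes in Adam17ex mice and 6 higher and 1 lower in WT mice. Mmp3, which degrades many matrix proteins, rose by 3.61 ± 0.76 in Adam17ex mice (edgeR adjusted p = 0.00101) and by 2.58 ± 0.56 in WT mice (adjusted p = 0.00073). Adam10, which encodes a related sheddase, rose by 1.07 ± 0.21 in Adam17ex and by 0.95 ± 0.20 in WT mice. Timp3, the inhibitor known to act on ADAM17, was -1.51 ± 0.28 in Adam17ex mice (adjusted p = 0.000291) and 0.07 ± 0.28 in WT mice (adjusted p = 0.853). Under PBS Timp3 was higher in Adam17ex than in WT mice (1.26 ± 0.30, edgeR adjusted p = 0.0385), and under cerulein its difference of -0.32 ± 0.28 did not pass (adjusted p = 0.534). The PBS call was lost in 13 of 27 alternatives, among them those without Adam17ex cerulein replicate 2 or 3, Adam17ex PBS replicate 2 or 3, WT cerulein replicate 1 or 2, or WT PBS replicate 2, 3 or 4. The Timp3 interaction of -1.58 ± 0.39 passed (edgeR adjusted p = 0.0176) but not without WT cerulein replicate 3 (-1.41, adjusted p = 0.0524), and was -1.02 (adjusted p = 0.315) without the 3 shallow libraries.

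Complement genes other than C3 were called higher for 0 and lower for 7 of 12 tested in Adam17ex mice, and higher for 0 and lower for 5 in WT mice, with a median of -1.32 in Adam17ex and -1.16 in WT mice. Cfd (adipsin, made by adipocytes) fell by 4.80 ± 1.17 in WT mice (edgeR adjusted p = 0.0022) and also belongs to the adipocyte list, and C1ra, a protease of the C1 complex, fell by 1.40 ± 0.38 there (adjusted p = 0.00514), a call lost without WT PBS replicate 2 (-1.0, adjusted p = 0.0517). In Adam17ex mice C1ra was called lower too (-1.08 ± 0.38, edgeR adjusted p = 0.0330), a call lost in 10 of 27 alternatives. The Cfd change there, -1.47 ± 0.80, did not pass (edgeR adjusted p = 0.172), nor did its interaction of 3.33 ± 1.46 (adjusted p = 0.182). Adam17ex cerulein replicates 1 to 4 held 11, 10, 199 and 9 Cfd UMIs, so replicate 3 supplied most of that group. C1q genes belong to both the complement and the macrophage lists, and 4 of 9 tested macrophage genes fell with cerulein in Adam17ex mice and 1 of 9 in WT mice. Of 8 tested fibroblast genes 6 fell with cerulein in Adam17ex mice and 1 in WT mice, with a median of -1.01 in Adam17ex and -0.57 in WT mice. The 13 fibroblast markers summed to 364 to 523 CPM in Adam17ex cerulein, 512 to 1441 in Adam17ex PBS, 228 to 341 in WT cerulein and 237 to 575 in WT PBS libraries, and were highest in Adam17ex PBS replicate 3, as C3 was. The part of adipocytes, macrophages or fibroblasts in the complement counts was not tested.

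Of 7 tested coagulation and fibrinolysis genes, beside which the fibrinogens were too scarce to test, 1 was higher and 1 lower with cerulein in Adam17ex mice and 2 were higher and 0 lower in WT mice. Anxa2, the plasminogen co-receptor annexin A2, rose by 2.59 ± 0.23 in WT mice (edgeR adjusted p = 1.06e-08) and was 0.60 ± 0.24 in Adam17ex mice (adjusted p = 0.0562). It was lower in Adam17ex than in WT mice under cerulein (-1.30 ± 0.22, adjusted p = 0.00033), with an interaction of -1.98 ± 0.33 (edgeR adjusted p = 0.000845), the same sign as that of Spp1. Procr, the receptor of protein C, rose by 3.14 ± 0.52 in Adam17ex mice (adjusted p = 9.3e-05). It rose by 1.17 ± 0.46 in WT mice (edgeR adjusted p = 0.0427), a call lost in 8 of 27 alternatives. Under cerulein it was higher in Adam17ex than in WT mice (1.33 ± 0.40, edgeR adjusted p = 0.0372), a call lost in 10 of 27. Its interaction of 1.96 ± 0.72 did not pass (edgeR adjusted p = 0.105).

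Iron and haem handling, in which lipocalin 2, ceruloplasmin and haptoglobin take part, gave 2 higher and 3 lower of 15 tested genes in Adam17ex mice and 1 higher and 6 lower in WT mice. Ftl1, the ferritin light chain, was lower with cerulein in WT mice (-0.81 ± 0.18, edgeR adjusted p = 0.000915) and higher in Adam17ex mice (0.56 ± 0.18, adjusted p = 0.0232), with an interaction of 1.37 ± 0.26 (edgeR adjusted p = 0.00236). Against WT mice Ftl1 was higher in Adam17ex under cerulein (0.58 ± 0.18, edgeR adjusted p = 0.0394) and lower under PBS (-0.78 ± 0.20, adjusted p = 0.0495). Of 27 alternatives the call was lost in 5 for cerulein in Adam17ex mice, among them those without Adam17ex cerulein replicate 3 or Adam17ex PBS replicate 2, in 11 between genotypes under cerulein and in 16 under PBS, and in 0 for WT mice and for the interaction. With single libraries left out, the genotype calls under cerulein were lost without Adam17ex cerulein replicate 1, 3 or 4, WT cerulein replicate 1, 2 or 3, or WT PBS replicate 1, and those under PBS without Adam17ex cerulein replicate 2, 3 or 4, Adam17ex PBS replicate 2 or 3, WT cerulein replicate 1, 2 or 3, or WT PBS replicate 1, 3 or 4. Hmox1, which degrades haem, rose by 2.58 ± 0.64 in WT mice (edgeR adjusted p = 0.00231). Its change in Adam17ex mice was 0.89 ± 0.71 and did not pass (adjusted p = 0.367), nor did its interaction of -1.70 ± 1.04 (adjusted p = 0.356). Slc11a2, an iron importer, fell by 1.70 ± 0.35 in WT mice (adjusted p = 0.0005). Its change in Adam17ex mice, -0.79 ± 0.43, did not pass (edgeR adjusted p = 0.173), nor did its interaction of 0.91 ± 0.56 (adjusted p = 0.357).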

How the data were processed

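Pancreatic RNA for 16 libraries was primed at the poly(A) tail from 30 ng, tagged with a UMI of 10 bp and read in the sense direction over 101 bp, per the labels' protocols. The deposited table holds raw counts as whole numbers for 24019 genes. The build GRCm38 and the tools R 4.1.2, edgeR 3.36.0 and limma 3.50.0 stand in the submitters' processing notes, but the aligner, the counting program and how UMIs were collapsed were not given in the sources used here. Priming at the poly(A) tail makes counts depend little on transcript length, and levels here are on that UMI scale. Depth was 455547 to 1476159 UMIs. The 24 pairs of libraries within groups differed by more than sampling noise (chi-square per degree of freedom 3.06 to 9.50), so each counted as 1 replicate.

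edgeR 4.0.16 in R 4.3.3 was run on all genes that filterByExpr kept at a minimum count of 10, with TMM factors, 1 coefficient per group, a sex term and 11 residual degrees of freedom. Quasi-likelihood p-values were adjusted by Benjamini-Hochberg over 8236 genes and called under 0.05. SE is the fold change over the root of F, and intervals are 95%. The script was tested on simulated data. The genes and the lists were chosen with earlier results of these data known. Named list genes are up to 4 per list with the smallest p in the WT cerulein, genotype under cerulein or interaction comparison. For motifs and likeness no p was computed; likeness used a pseudocount of 1. Floors are 3 counts over the total UMIs of a group, without TMM factors. Alternatives were DESeq2 1.42.0, other scaling factors, no filter, no sex term, females only, a replicate block, thinned counts and libraries left out.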

Additional observations from a re-analysis of the deposited data

Results flagged for a closer look

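In 28 sets of 4 libraries, 1 per tested gene and group, the gap of the highest or lowest library to its neighbour was compared with Dixon's 95% critical value, which chance passes in about 1 of 20 sets. It was passed by Clu in Adam17ex cerulein replicate 2 at 3757 CPM, Hp in Adam17ex cerulein replicate 3 at 57.6 CPM and Cp in Adam17ex cerulein replicate 3 at 85.2 CPM. It was passed also by C3 in Adam17ex PBS replicate 3 at 261 CPM, and by Timp1 at 14.9 CPM and Hp at 176 CPM in WT PBS replicate 2. Each of these values was the highest of its group. Adam17ex cerulein replicate 3, Adam17ex PBS replicate 3 and WT PBS replicate 2 were also the highest of their groups for the adipocyte sum, at 687, 1766 and 913 CPM, and the part of that in the values was not tested.

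The cerulein response of Spp1 differed between Adam17ex and WT mice by -2.15 on the log2 scale, by the test of the interaction itself (edgeR adjusted p = 0.000258).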

How the results depend on the processing

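Of 27 alternatives, the calls of Lcn2 in both genotypes, of Clu and Spp1 in WT mice, and of Spp1 between genotypes under cerulein and in the interaction held in all. Of the 7 tested genes, the number called with cerulein in Adam17ex mice was 3, against 5 with no filter (3 higher and 2 lower), 1 without the 3 shallow Adam17ex PBS libraries (Lcn2) and 3 to 5 with 1 library left out. Over all tested genes 2493 of 8236 were called there, against 2752 of 24019 with no filter and 1360 of 9915 without the shallow libraries. With 1 library left out 2022 to 2615 genes were called. In WT mice the number of the 7 called was 6, with 4 to 6 over all alternatives and 5 to 6 with 1 library left out. Between genotypes under cerulein it was 1, against 2 with DESeq2 (Spp1 and Clu) and 1 with 1 library left out. Under PBS it was 0 throughout. For the interaction it was 1, against 2 with DESeq2 (Spp1 and Clu), 2 with no filter (Spp1 and Hp) and 1 to 2 with 1 library left out.

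Signs that turned were all of values that had not passed. Timp1 under PBS was -0.12 in females, -0.049 with no sex term, -0.066 on thinned counts, -0.13 without the shallow libraries and -0.36 to 2.25 with 1 library left out, Lcn2 there -0.11 to 1.39 with 1 left out, and Cp there -0.091 on thinned counts. Hp under PBS was 0.11 with no sex term, 1.86 without the 3 libraries of highest adipocyte sum and -1.76 to 1.94 with 1 left out. Hp under cerulein between genotypes was -1.04 in females, -0.047 without those 3 libraries and -0.20 to 1.42 with 1 left out, and its interaction -0.49, -1.91 and -0.92 to 2.57. C3 with cerulein in WT mice was 0.20 in females and on thinned counts, 0.74 without those 3 and -0.52 to 0.63 with 1 left out, and between genotypes under cerulein -0.87 to 0.079. The cause was not tested.

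Replicate numbers recur in the groups, and same-numbered libraries had correlations of -0.21 to 0.23, over 0.1 in 5 of 24 pairs. Between Adam17ex cerulein and Adam17ex PBS they were 0.15, -0.0020, 0.11 and 0.23 for replicates 1 to 4, so not every pair exceeded 0.1, and the numbers were not taken as pairing. With the replicate block 4 of the 7 genes were called in Adam17ex mice (Hp added, -2.41, adjusted p = 0.0472), 6 in WT mice, 1 between genotypes under cerulein, 0 under PBS and 1 for the interaction. Over all 8236 tested genes 2440, 3333, 749, 230 and 488 were called with it, in the same order. Of 1449 refitted values of the called list genes that were named by smallest p, 0 changed sign and 142 lost the call. Il11ra1, Il6ra, Lifr, Cebpb, Lif and Jak2, chosen after their values were seen, are not among these. Their calls were lost in between 0 of 27 alternatives (Cebpb with cerulein in WT mice) and 20 of 27 (Il6ra there). Some calls of list genes were lost in fits with fewer counts or fewer libraries. That of Vldlr between genotypes under cerulein was lost in females alone (1.05, edgeR adjusted p = 0.0556) and on thinned counts (1.05, edgeR adjusted p = 0.161). Those of Serpina3n and C1ra in WT mice were lost on thinned counts (1.66 and -1.07). Those of Adam10 and Timp3 in Adam17ex mice were lost without the shallow libraries (0.98 and -0.91), where Adam17ex PBS replicate 4 stood alone for its group. What lost these calls was not tested. Lcn2 under PBS and Timp1 rest on 0 to 20 UMIs per library outside the WT cerulein group.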
